A study of Mus musculus with 2 samples.

Results

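The 34 genes described here encode proteins that carry newly made secretory and membrane proteins into the endoplasmic reticulum (ER), fold and glycosylate them there, and clear those that fail to fold. They were taken as a list of gene symbols drawn up with earlier results of these data known, and all 34 were found among the 32285 genes counted in each library. By role they are 6 ER chaperones, 4 co-chaperones of the chaperone Hspa5, 5 enzymes that make or rearrange disulfide bonds or work beside them, 3 genes of ER-associated degradation, 8 of protein translocation, 4 of signal peptidase, 3 of oligosaccharyltransferase and 1 retrieval receptor. As background, a protein bound for secretion enters the ER through the Sec61 channel, loses its signal peptide to signal peptidase and receives N-linked sugar chains from oligosaccharyltransferase. Chaperones and protein disulfide isomerases then fold it, and chains that stay misfolded are sent back to the cytosol for degradation. In the gut wall goblet cells secrete mucins, Paneth cells antimicrobial peptides, enteroendocrine cells peptide hormones and plasma cells antibodies, and the unfolded protein response can raise many of these genes where the ER is heavily loaded. The comparison asked how these genes stood in those 4 secretory cell classes against enterocytes, progenitors and T cells.

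The cells came from the proximal small intestine of control mice of the strain C57BL/6, in 2 droplet libraries (10x Genomics Chromium, 3' ends of polyadenylated RNA, each molecule tagged by a unique molecular identifier, UMI). The wider series knocks down muscarinic receptor M1 or M3 selectively in mice, and only control mice gave the cells described here. The library called control 1 here is titled as an M1 control and control 2 as an M3 control, and both share 1 genotype label, so the pair differs in nothing else that the labels state. Age is not labelled, nor whether a separate animal stood behind each library, so the spread between them may be technical. Villus cells were released with 20 mM EDTA for 60 min and crypt cells with the enzyme mix TrypLE for 10 min, and both fractions were pooled.

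After filtering, 7061 cells remained in control 1 and 4711 in control 2. Goblet-like cells numbered 116 and 252, Paneth-like cells 15 and 13, enteroendocrine-like cells 32 and 15, and plasma-like cells 15 and 15. The reference classes held 3497 and 2325 enterocyte-like cells, 536 and 266 progenitor-like cells and 1825 and 811 T or NK-like cells. Summed depth ran from 88922 UMIs in the plasma-like cells of control 2 to 23587461 in the enterocyte-like cells of control 1. The 5 deepest cells gave 68.9% and 90.7% of the UMIs of the Paneth-like class, 73.8% and 52.3% of the plasma-like class and 36.2% and 71.3% of the enteroendocrine-like class. In the enterocyte-like class a deep cluster of 287 and 209 cells gave 13688195 of 23587461 and 6167907 of 12386909 UMIs. Of the cell barcodes, 17 occurred in both libraries, 7 of them among the kept cells.

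The class names rest on marker genes. All 11 goblet, all 9 Paneth and all 8 plasma cell markers had UMIs in their class in both libraries. Of 16 enteroendocrine markers, 16 and 15 had UMIs in theirs (Pyy was at 0 in control 2). Some classes also carried markers of other cells. The progenitor-like class, which joins a stem and a cycling cluster, held the 13 T or NK markers at 9066 and 9890 CPM (a gene's UMIs scaled to a common class total) in sum, against 71859 and 61929 in the T or NK-like class and 490 and 462 in the enterocyte-like class. The Paneth-like class held 10 of 11 goblet markers at 4838 and 10239 CPM (Capn9 at 0) and all 8 stem markers at 1883 and 2366 CPM. The enteroendocrine-like class held 10 of 11 goblet markers at 4447 and 13845 CPM (Spdef at 0 in control 1, Capn9 in control 2) and all 12 enterocyte markers at 8414 and 4580 CPM. The goblet-like class held the 12 enterocyte markers at 8500 and 3523 CPM. The plasma-like class held 12 and 9 of the enterocyte markers at 1359 and 5780 CPM (Alpi, Anpep and Slc5a1 at 0 in control 2) and 9 and 11 of the T or NK markers at 259 and 517 CPM. The part of these markers in the results was not tested, except that a fit on the 497 and 252 progenitor-like cells with UMIs of fewer than 6 T or NK markers gave 28, 26, 12 and 27 members higher in the goblet-, Paneth-, enteroendocrine- and plasma-like classes, where 28.2%, 16.3%, 28.5% and 3.55% of all genes were higher, so the enteroendocrine-like count is near its background. RNA content differed as well: Malat1, a nuclear RNA, reached 0.2% of UMIs in 1787 of 1825 and 809 of 811 T or NK-like cells, but in 272 of 3497 and 376 of 2325 enterocyte-like cells, 66 of 536 and 37 of 266 progenitor-like cells and 2 of 15 and 2 of 13 Paneth-like cells.

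The plasma-like cells devoted the largest share of their UMIs to the 34 genes among the 7 classes: control 1 had 1.15% (1.11% to 1.20%, 95% exact interval) and control 2 had 1.11% (1.04% to 1.18%). Shares in the other secretory classes were 0.448% and 0.405% in goblet-like, 0.445% and 0.492% in enteroendocrine-like and 0.2% and 0.254% in Paneth-like cells. The reference classes held 0.391% and 0.303% (enterocyte-like), 0.278% and 0.291% (progenitor-like) and 0.433% and 0.490% (T or NK-like). Outside the plasma-like class, then, secretory and reference classes overlapped, and Paneth-like cells were the lowest of all. A few products took a large share of the RNA in 3 of the secretory classes, and less in the enteroendocrine-like class, whose markers took 14.9% and 14% of UMIs. Goblet markers such as mucin genes took 38.2% and 39.6% of goblet-like UMIs, Paneth markers (mostly defensins) 59.3% and 51.2% of Paneth-like UMIs, and immunoglobulin genes 69.7% and 67.4% of plasma-like UMIs. With immunoglobulin and all class marker genes left out of the totals, the members' share became 3.88% and 3.54% in plasma-like, 0.744% and 0.680% in goblet-like, 0.532% and 0.585% in enteroendocrine-like and 0.501% and 0.538% in Paneth-like cells, against 0.285% to 0.526% in the 6 reference sums. On that scale the goblet-like and enteroendocrine-like values lay above every reference value, and the Paneth-like values overlapped those of the T or NK-like class. The intervals cover counting error only.

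**Figure D1:**
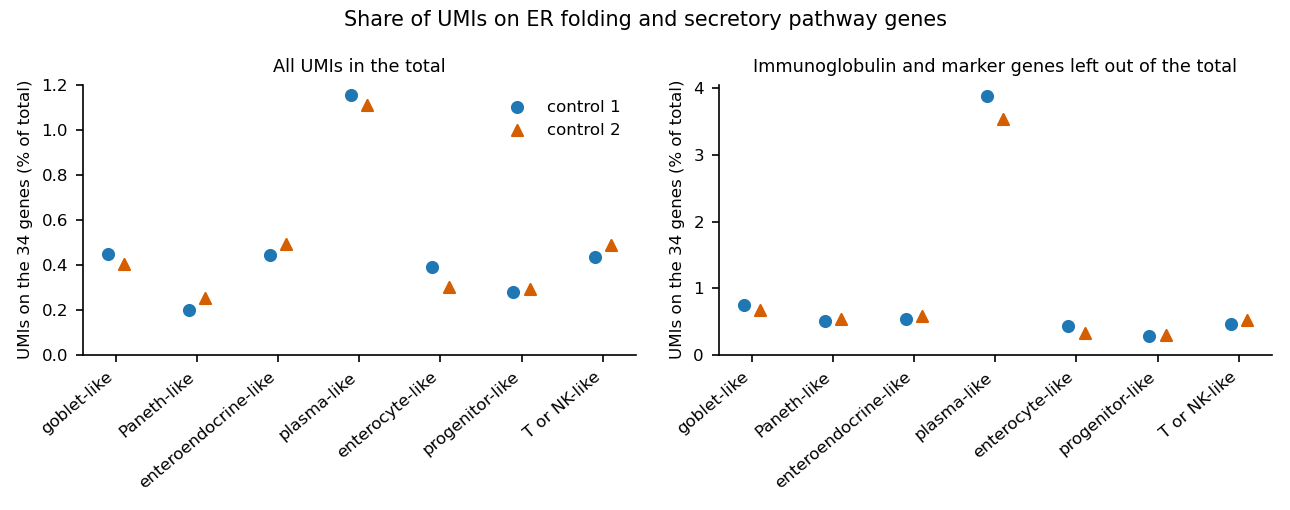
UMIs on the 34 genes as a percentage of all UMIs of a class (left) and of the UMIs left after immunoglobulin and marker genes were removed (right), for 7 cell classes; circles are control 1 and triangles control 2. Plasma-like cells stand apart at 1.15% and 1.11% (left) and 3.88% and 3.54% (right), and Paneth-like cells move from the lowest place on the left to 0.501% and 0.538% on the right.

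Gene by gene, the sums of the 7 classes in the 2 libraries were compared in 1 fit, after scaling by trimmed mean of M-values (TMM), which sets classes by the bulk of their genes and so discounts the few product genes. Levels are given below as scaled CPM, that is CPM of the TMM-scaled UMI total. In goblet-like cells 27 of the 34 members were higher than the mean of the 3 reference classes and 0 were lower (adjusted p under 0.05 by edgeR's quasi-likelihood test, n = 2 libraries), where 27.9% of all 12058 tested genes were higher and 31% lower. In plasma-like cells 27 were higher and 0 lower, against 3.27% and 7.11% of all genes. The plasma-like count fell to 18 higher and 0 lower (1.2% and 3.68% of all genes) without the 5 deepest cells of each class and library. The plasma-like sums were the shallowest, at 197138 and 88922 UMIs, and the part of depth in their background shares was not tested. In Paneth-like cells 23 were higher and 0 lower, against 16.4% and 11.9%. In enteroendocrine-like cells 13 were higher and 4 lower, against 27.9% and 22.6%, which is near the background. That count moved with the settings: with RLE size factors 22 were higher and 1 lower (36.5% and 14.2% of all genes), and with no filter on low counts 7 were higher and 8 lower (15.2% and 15.8%). The median log2 fold change of the members was 2.25 in plasma-like, 1.17 in Paneth-like, 1.03 in goblet-like and 0.45 in enteroendocrine-like cells, beside medians of -1.38, -0.06, -0.18 and 0.00 over all tested genes. All 34 members passed the filter on low counts.

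The direction in Paneth-like cells depends on the scale. With plain UMI totals in place of TMM, the median of all genes moved by -1.5 on the log2 scale in Paneth-like, -0.54 in goblet-like, -0.89 in plasma-like and 0.25 in enteroendocrine-like cells, and the members moved with it. On plain totals 3 members were higher and 15 lower in Paneth-like cells (6.12% and 65.3% of all genes), 17 and 1 in goblet-like (18.4% and 46.2%), 20 and 1 in plasma-like (2.26% and 35.3%) and 18 and 2 in enteroendocrine-like cells (32.3% and 17.3%). A change of size factors shifts all genes of a class nearly alike, so the distance of the members' median from that of all genes is fixed by construction and says nothing of stability. That distance was 1.23 in Paneth-like, 1.22 in goblet-like, 3.63 in plasma-like and 0.45 in enteroendocrine-like cells on TMM. In plasma-like cells it became 7.43 without the 5 deepest cells of each class and library. The median of all genes was then -5.64 and that of the members 1.80. The plasma-like distance thus moved with the cells kept, and the part of depth in it was not tested.

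**Figure D2:**
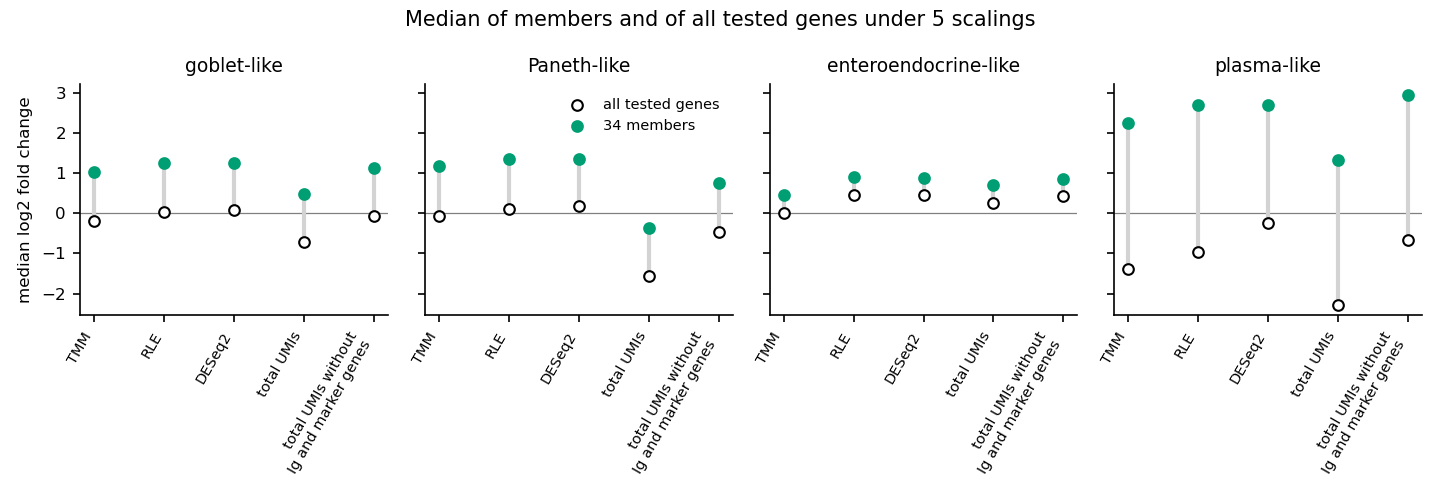
Median log2 fold change of the 34 members (green) and of all tested genes (open circles) against the mean of the 3 reference classes, in 4 secretory classes under 5 scalings. In Paneth-like cells the members' median goes from 1.17 on TMM to -0.36 on plain totals, and the median of all genes shifts with it, as a change of size factors does by construction.

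Other limits bear on these counts. When each cell took its class from its marker score, with no clustering, members called higher were 10 in goblet-like cells (22.9% of all genes). They were 3 in Paneth-like (10%), 1 in enteroendocrine-like (23.5%) and 18 in plasma-like cells (2.12%). That rule changed the cells of each class. Goblet-like cells then numbered 181 and 375, Paneth-like 91 and 142, enteroendocrine-like 36 and 16 and plasma-like 14 and 29. Progenitor-like cells numbered 371 and 155, with 4001407 and 1770102 UMIs. With cells of at least 0.2% Malat1 alone, 19 members were higher in goblet-like cells (25% of all genes), and in enteroendocrine-like cells 1 was higher and 9 lower (22.1% and 21.6%), and the Paneth- and plasma-like classes were too small to fit.

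Among single reference classes, the most members were called higher against progenitor-like cells in the main fit. Most progenitor-like cells were under 0.2% Malat1 (470 and 229), with a members' share of 0.218% and 0.239%. Those at or above it (66 and 37) had 0.465% and 0.437%. Goblet-like cells had 0.449% and 0.594% under it and 0.447% and 0.377% at or above it. In cells at or above it, 19 members were higher in goblet-like than in progenitor-like cells. The part of RNA content in these counts was not tested. In goblet-like cells 31 members were higher than in progenitor-like cells (28.5% of all genes, with 31.3% lower), 19 than in enterocyte-like cells (22.3%, with 26.3% lower) and 19 than in T or NK-like cells (29.2%, with 33.1% lower). On plain totals the goblet-like counts were 19 against progenitor-like (19%) and 5 against T or NK-like cells (19.2%). By marker score they were 9 against enterocyte-like (20.2%), 9 against progenitor-like (24.2%) and 12 against T or NK-like cells (28.6%). At Leiden resolution 0.5 the goblet-like count against enterocyte-like cells was 29 (29.3%). A deep cluster of 291 and 205 cells that scored as enterocyte went unnamed there. The enterocyte-like sums were then 10586351 and 6630213 UMIs, so that reference was not the same set of cells. Sdf2l1 was the single goblet-like member below a reference, at a log2 fold change of -0.98 against T or NK-like cells (adjusted p = 0.0021). In Paneth-like cells the counts were 30 (14.3%, with 14% lower), 15 (17.9%, with 19.9% lower) and 17 (22.3%, with 19.4% lower), and no member was lower. On plain totals the Paneth-like counts were 5 (4.65%), 3 (5.32%) and 1 (11%), in the same order, and by marker score 4 (4.52%), 4 (21.6%) and 6 (23.3%). At Leiden resolution 0.5 the count against enterocyte-like cells was 27 (23.6%), again without that deep cluster. In plasma-like cells they were 29 (3.75%, with 11.2% lower), 26 (4.81%, with 18.7% lower) and 27 (3.47%, with 10.6% lower), and P4hb was lower than in enterocyte-like cells. In enteroendocrine-like cells 21 were higher and 3 lower than in progenitor-like cells (28.9% and 26.1%), 7 and 5 than in enterocyte-like cells (25.5% and 24.9%), and 6 and 5 than in T or NK-like cells (27.7% and 23.1%). Members higher than each of the 3 reference classes numbered 23 in plasma-like (1.89% of all genes), 14 in goblet-like (12.5%), 11 in Paneth-like (5.54%) and 2 in enteroendocrine-like cells (13.8%). Those 2 were Hyou1 and Sel1l.

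**Figure D3:**
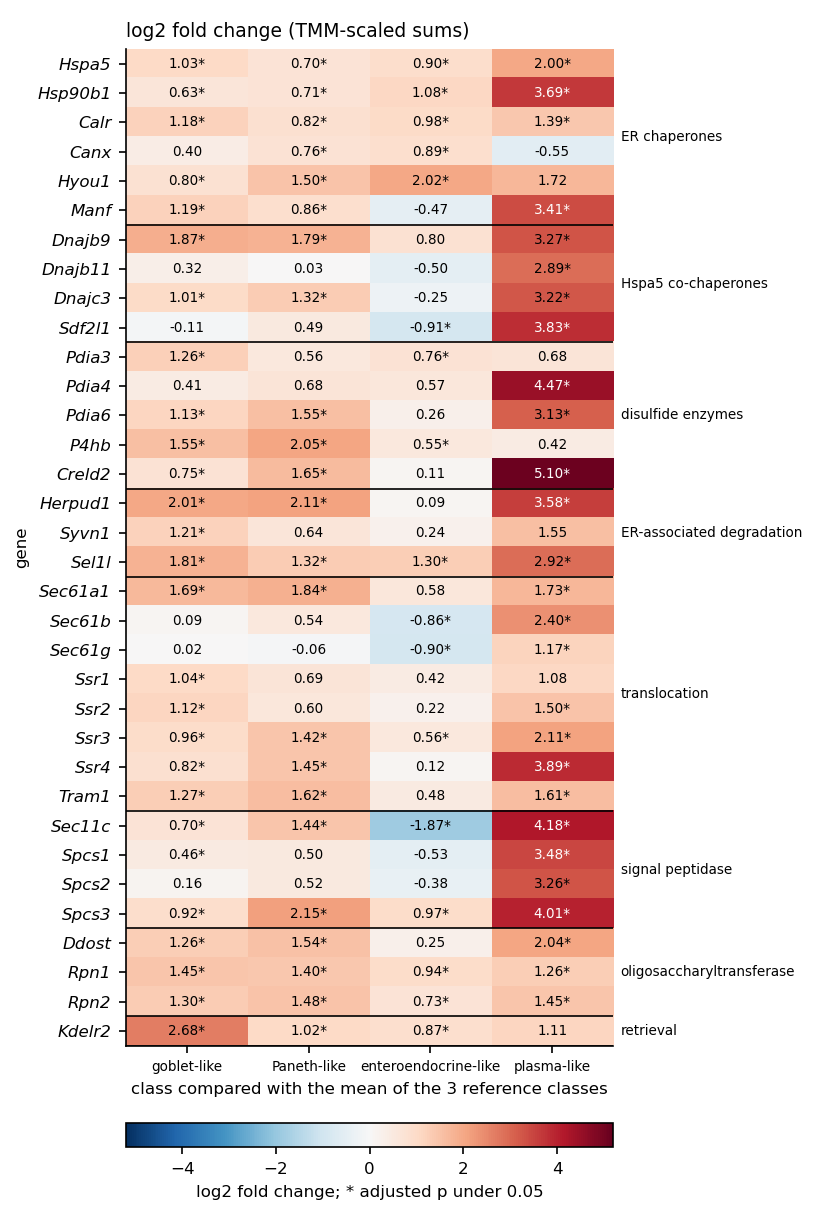
log2 fold change of each member in 4 secretory classes against the mean of enterocyte-, progenitor- and T or NK-like cells, on TMM-scaled sums; an asterisk marks an adjusted p under 0.05 and lines divide the role groups. The plasma-like column holds the largest values, up to 5.10 for Creld2, and the enteroendocrine-like column holds the 4 members that were lower.

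Of the 6 chaperones, 5 were higher in goblet-like, 6 in Paneth-like, 5 in enteroendocrine-like and 4 in plasma-like cells. All 6 Paneth-like fold changes, though, turned negative on plain UMI totals. Beside these and the role-group counts below, 27.9%, 16.4%, 27.9% and 3.27% of all genes were higher, in that order of classes. The shares lower were 31%, 11.9%, 22.6% and 7.11%. Hsp90b1, the ER member of the Hsp90 family, was at 2073 and 1611 scaled CPM in plasma-like cells and between 99.7 and 225 in the 6 reference sums. It was also at 324 and 285 in enteroendocrine-like, 249 and 197 in goblet-like and 164 and 305 in Paneth-like cells, so the plasma-like sums overlapped with none. Its log2 fold change was 3.69 ± 0.24 (SE, adjusted p = 1.1e-11) in plasma-like and 1.08 ± 0.24 (adjusted p = 0.00056) in enteroendocrine-like cells. Hspa5 (BiP), the main Hsp70-type chaperone of the ER and the regulator of its stress sensors, was at 469 and 547 in plasma-like cells and at 276 and 237 in goblet-like cells. T or NK-like cells held 168 and 247, so the goblet-like and T or NK-like values overlapped, while progenitor-like cells were at 61.8 and 78.3. Its log2 fold change was 2.00 ± 0.27 (adjusted p = 1.1e-05) in plasma-like and 1.03 ± 0.22 (adjusted p = 0.00024) in goblet-like cells.

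Manf, a small ER cofactor of Hspa5 that can be secreted, was at 822 and 719 in plasma-like and 200 and 134 in goblet-like cells. In enteroendocrine-like cells it was at 45.5 and 61.6, within or under the 48.8 to 103 of the reference sums. Hyou1, which exchanges nucleotide on Hspa5, had its highest mean in enteroendocrine-like cells, at 31.2 and 34 against 3.31 to 16 in the references (log2 fold change 2.02 ± 0.33, adjusted p = 1.6e-05). Its plasma-like value rests on 3 and 2 UMIs and did not pass the test (1.72 ± 0.79, adjusted p = 0.17). Calr and Canx, lectins that hold N-glycosylated chains, went apart in plasma-like cells. Calr was at 403 and 273 there (1.39 ± 0.28, adjusted p = 0.0015), and Canx at 90.5 and 28.8 (-0.55 ± 0.44, adjusted p = 0.46), from 11 and 2 UMIs. Canx was at 170 and 198 in enteroendocrine-like cells, above all 6 reference sums (62.9 to 129).

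The promoter windows of 4 of the 6 chaperones (Hspa5, Hsp90b1, Calr and Canx) held a match to the ER stress element, through which the unfolded protein response can act, and the matches are shown for that reason. The ER stress element (ERSE) was searched as CCAAT, 9 bases of any kind and CCACG, and its shorter relative ERSE-II as ATTGG, 1 base of any kind and CCACG, on both strands of RefSeq windows (build GRCm38.p6) that run from 250 bases before to 50 bases after each annotated start. The 2 motifs share the letters CCACG, and no match overlapped another. Of the 34 members, 26 had a window, and Hyou1, Kdelr2, Manf, Sec11c, Sec61a1, Spcs3, Ssr2 and Tram1 had none. ERSE was in 8 of them (30.8%) and in 37 of 27025 genes overall (0.137%), and ERSE-II in 2 (7.69%) and in 12 genes overall (0.0444%). The shorter letters TGACGTG, the core of another element of this response, were in 1 member window, that of Hspa5 (3.85%), and in 2.22% of genes. The matches follow, read 5′ to 3′ on the motif's strand, with the fixed letters in capitals.
Calr: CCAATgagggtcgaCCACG (chr8:84847075-84847093, ERSE)
Canx: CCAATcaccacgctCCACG (chr11:50325800-50325818, ERSE)
Creld2: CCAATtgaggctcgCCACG (chr15:88819520-88819538, ERSE)
Dnajb11: ATTGGcCCACG (chr16:22857852-22857862, ERSE-II)
Dnajc3: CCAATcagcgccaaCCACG (chr14:118937827-118937845, ERSE)
Herpud1: ATTGGgCCACG (chr8:94386377-94386387, ERSE-II)
Hsp90b1: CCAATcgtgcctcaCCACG (chr10:86705533-86705551, ERSE)
Hsp90b1: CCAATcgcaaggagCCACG (chr10:86705638-86705656, ERSE)
Hspa5: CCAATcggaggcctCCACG (chr2:34772025-34772043, ERSE)
Pdia6: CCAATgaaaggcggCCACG (chr12:17266491-17266509, ERSE)
Syvn1: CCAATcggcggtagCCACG (chr19:6046532-6046550, ERSE)
The 9 ERSE matches began 44 to 212 bases before the annotated start, and 6 lay on the gene's own strand. The Dnajb11 match began 7 bases after it. To show how the matches sit, the 250 bases before the start are given for Hspa5 (chr2:34771840-34772089, + strand), the member with ERSE and TGACGTG, and for Hsp90b1 (chr10:86705445-86705694, - strand), the member with 2 ERSE matches, each on the gene's strand with the matched fixed letters in capitals. The second Hsp90b1 match reads on the opposite strand.
Hspa5: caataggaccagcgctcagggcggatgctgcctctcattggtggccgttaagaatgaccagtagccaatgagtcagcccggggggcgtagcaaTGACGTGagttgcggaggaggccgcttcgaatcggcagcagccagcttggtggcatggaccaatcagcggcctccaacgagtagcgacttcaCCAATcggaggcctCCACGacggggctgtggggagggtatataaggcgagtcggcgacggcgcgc
Hsp90b1: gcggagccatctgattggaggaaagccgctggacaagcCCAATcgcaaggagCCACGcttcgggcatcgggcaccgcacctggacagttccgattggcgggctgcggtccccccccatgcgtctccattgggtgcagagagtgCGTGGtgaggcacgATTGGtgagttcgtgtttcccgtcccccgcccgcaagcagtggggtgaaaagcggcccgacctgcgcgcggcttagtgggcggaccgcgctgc
Members with ERSE had a median log2 fold change of 2.56 in plasma-like, 1.02 in goblet-like, 0.79 in Paneth-like and 0.57 in enteroendocrine-like cells, beside 2.64, 1.00, 1.01 and 0.33 for the 18 members with a window and no ERSE. These medians are a description, and a match of letters is not a measured binding site.

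**Figure D4:**
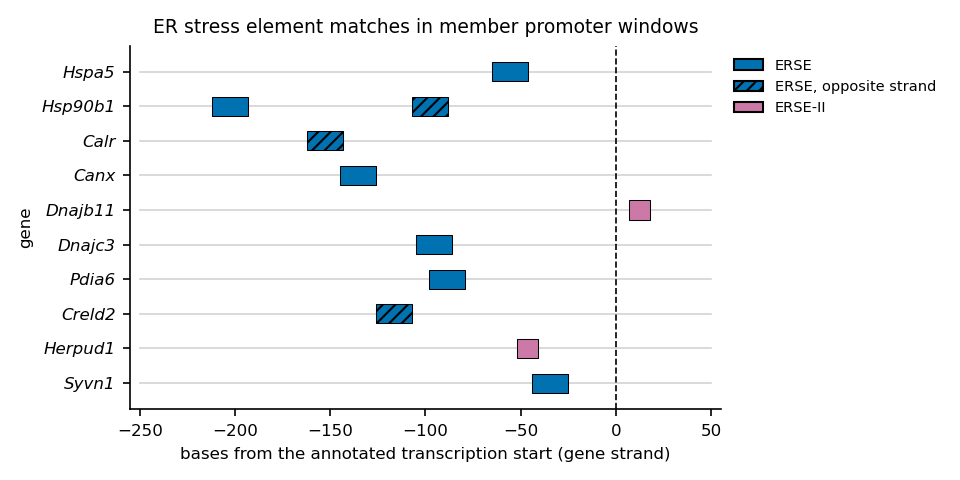
Position of ERSE (blue, hatched on the strand opposite to the gene) and ERSE-II (pink) matches in the promoter windows of 10 members, in bases from the annotated transcription start at 0. The 9 ERSE matches begin 44 to 212 bases before the start, and the Dnajb11 match lies after it.

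The 4 co-chaperones, which deliver clients to Hspa5 or set its ATPase, were all higher in plasma-like cells. Dnajb9 and Dnajc3 were also higher in goblet-like and Paneth-like cells, and Dnajb11 and Sdf2l1 were not called in either. Sdf2l1, a partner of Dnajb11, was at 345 and 388 scaled CPM in plasma-like cells and 15.5 to 47.5 in the references (3.83 ± 0.29, adjusted p = 2.4e-10). In enteroendocrine-like cells it was at 14.4 and 12.7, below all 6 reference sums (-0.91 ± 0.37, adjusted p = 0.043). Dnajb11 was at 304 and 288 in plasma-like cells and 25.9 to 54.8 in the references. Dnajc3, which binds unfolded chains, was at 790 and 561 in plasma-like, 189 and 174 in Paneth-like and 146 and 147 in goblet-like cells. T or NK-like cells held 145 and 168, so only the plasma-like and Paneth-like sums stood above every reference sum, and the Paneth-like fold change turned negative on plain totals (-0.22, adjusted p = 0.39). Dnajb9 was at 48.5 and 41.6 in goblet-like and 43.4 and 41.9 in Paneth-like cells, above the 5.17 to 24.3 of the references. Its plasma-like levels, 164 and 57.5, rest on 20 and 4 UMIs.

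The 5 disulfide genes fell into different patterns. Creld2 and Pdia4 were mostly plasma-like genes. Creld2, an ER protein with isomerase activity, was at 411 and 187 there and at 4.43 to 19 in the references, which gave a log2 fold change of 5.10 ± 0.35 (adjusted p = 4.0e-11) and with lower but called values in goblet-like (0.75 ± 0.31, adjusted p = 0.039) and Paneth-like cells (1.65 ± 0.40, adjusted p = 0.0025). Pdia4 was at 436 and 403 in plasma-like cells, against 10.3 to 35.2 in the references and 19.7 to 41.9 in the other secretory classes, where it was not called. Pdia6 was at 461 and 417 in plasma-like, 164 and 130 in Paneth-like and 124 and 95.7 in goblet-like cells, each above all reference sums (32.9 to 89.4).

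P4hb and Pdia3 did not follow them. P4hb, the classical protein disulfide isomerase and also a subunit of the triglyceride transfer protein with which enterocytes load lipoproteins, was as high in enterocyte-like cells (453 and 438) as in Paneth-like cells (424 and 431). Goblet-like cells held 294 and 310, plasma-like cells 123 and 158, and progenitor- and T or NK-like cells 41.0 to 66.5. Plasma-like cells were below enterocyte-like cells by a log2 fold change of -1.69 (adjusted p = 0.00066), and enteroendocrine-like cells, at 161 and 138, by -1.56 (adjusted p = 2.2e-05). Pdia3, which works on the clients of Calr and Canx, was highest in goblet-like cells at 275 and 315 (1.26 ± 0.18, adjusted p = 2.6e-06), where all reference sums were at 77.6 to 215. In plasma-like cells it was at 214 and 173 and was not called (0.68 ± 0.30, adjusted p = 0.15).

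All 3 genes of ER-associated degradation were higher in goblet-like, 2 in Paneth-like, 2 in plasma-like and 1 in enteroendocrine-like cells. The enteroendocrine-like count is near its background (27.9% of all genes). Herpud1, a stress-induced scaffold of the degradation complex, was at 134 and 101 in goblet-like and 168 and 89.8 in Paneth-like cells, above the 11.1 to 52.2 of the references (2.01 ± 0.19, adjusted p = 1.7e-09, and 2.11 ± 0.23, adjusted p = 5.3e-08). In plasma-like cells it reached 444 and 259, and in enteroendocrine-like cells 40.7 and 21.2, within the reference range. Sel1l, the adaptor of the ubiquitin ligase Syvn1, was higher in all 4 secretory classes: 263 and 115 in plasma-like, 92.8 and 99.4 in goblet-like, 69.0 and 67.9 in Paneth-like and 55.1 and 82.9 in enteroendocrine-like cells, against 8.47 to 42.1. No sum of a secretory class overlapped a reference sum for this gene, with the Paneth-like direction again reversed on plain totals. Syvn1 was at 11.2 and 23.7 in goblet-like cells (1.21 ± 0.28, adjusted p = 0.00062), and its plasma-like levels of 16.4 and 28.8 rest on 2 UMIs in each library.

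Of the 8 translocation genes, 6 were higher in goblet-like, 4 in Paneth-like and 7 in plasma-like cells. In enteroendocrine-like cells 1 was higher and 2 lower, under or near the background (27.9% and 22.6% of all genes). Ssr4, a subunit of the translocon-associated complex, was at 2418 and 2000 in plasma-like cells, 445 and 367 in Paneth-like and 106 to 247 in the references (3.89 ± 0.21, adjusted p = 2.2e-13, in plasma-like cells). Its partners had smaller fold changes in plasma-like cells: Ssr3 was at 173 and 187 (2.11 ± 0.31), Ssr2 at 156 and 115 (1.5 ± 0.36), and Ssr1 at 98.7 and 28.8 without a call (1.08 ± 0.47, adjusted p = 0.15). The difference between these subunits was not tested. Sec61a1, the pore of the channel, was higher in goblet-like (78.0 and 90.6) and Paneth-like cells (84.8 and 104) than in every reference sum (15.8 to 42.4). Sec61b and Sec61g, its small subunits, were not called in either class.

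In plasma-like cells Sec61b was at 1423 and 1208 and Sec61g at 921 and 762, above every reference sum. In enteroendocrine-like cells the same subunits were below every reference sum. Sec61b was at 119 and 157 there against 173 to 371 (-0.86 ± 0.26, adjusted p = 0.0077), and Sec61g at 180 and 223 against 233 to 535 (-0.90 ± 0.25, adjusted p = 0.0034). Tram1, a membrane protein beside the channel, was at 156 and 166 in Paneth-like and 112 and 138 in goblet-like cells, against 37.2 to 69.0. In plasma-like cells Tram1 was at 239 and 43.2, from 29 and 3 UMIs, so its call there (1.61 ± 0.38, adjusted p = 0.0069) rests on control 1, and the log2 ratio within control 2 alone was -0.28. Without the 5 deepest cells of each class and library, Tram1 was at a log2 fold change of -0.36 (adjusted p = 0.78) and Sec61a1, called at 1.73 in plasma-like cells, at -0.41 (adjusted p = 0.82).

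All 4 signal peptidase genes were higher in plasma-like, 3 in goblet-like and 2 in Paneth-like cells. In enteroendocrine-like cells 1 was higher and 1 lower, near the background (27.9% and 22.6% of all genes). Sec11c, one of the catalytic subunits, was at 2056 and 1568 in plasma-like cells, 250 and 290 in Paneth-like cells and 59.4 to 181 in the references, and at 32.4 and 21.2 in enteroendocrine-like cells. The plasma-like sums were above and the enteroendocrine-like sums below every other class. The log2 fold changes were 4.18 ± 0.20 (adjusted p = 2.4e-14) and -1.87 ± 0.30 (adjusted p = 9.6e-06). The 3 Spcs subunits were higher in plasma-like cells too: Spcs1 at 1012 and 633 (3.48 ± 0.21), Spcs2 at 1341 and 734 (3.26 ± 0.22) and Spcs3 at 370 and 201 (4.01 ± 0.31). Spcs3, needed for the complex to cut, was the member of this complex that was higher in all 4 secretory classes. It was at 84.8 and 81.9 in Paneth-like cells (2.15 ± 0.25, adjusted p = 2.6e-07, and higher on plain totals as well), above the 11.6 to 38.2 of the references. Spcs2 was not called in goblet-, Paneth- or enteroendocrine-like cells.

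The 3 oligosaccharyltransferase genes were higher in goblet-, Paneth- and plasma-like cells, without exception on the TMM scale. Ddost was at 90.0 and 73.4 in goblet-like cells against 14.8 to 59.0 in the references (1.26 ± 0.19, adjusted p = 4.1e-06). Rpn1 was at 98.4 and 145 and Rpn2 at 116 and 122 in goblet-like cells, with log2 fold changes of 1.45 ± 0.18 and 1.30 ± 0.20. Plasma-like values were of like size, 98.7 and 115 for Rpn1 and 148 and 115 for Rpn2. Plasma-like against goblet-like cells, none of the 3 passed the test, and their median log2 fold change was 0.15.

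Kdelr2, the receptor that returns chaperones with a KDEL-type end from the Golgi to the ER, was the member with the largest goblet-like change. It was at 319 and 305 in goblet-like cells and at 164 and 96.7 in enterocyte-like cells, with 26.6 to 35.0 in the other references (2.68 ± 0.18, adjusted p = 2.3e-12). Goblet-like cells stood above every other class in both libraries. Plasma-like cells held 115 and 101, within the reference range, and were not called (1.11 ± 0.38, adjusted p = 0.062).

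**Figure D5:**
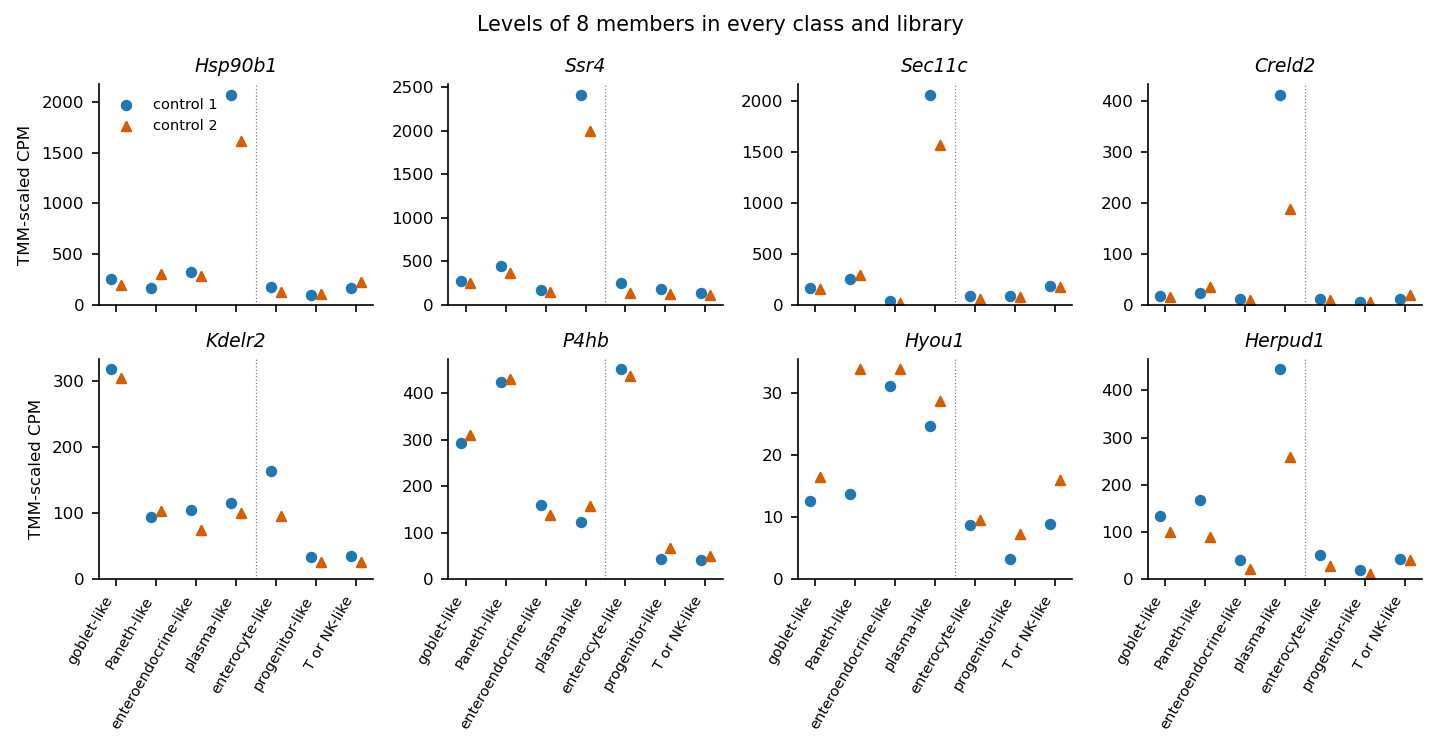
TMM-scaled CPM of 8 members in 7 classes; circles are control 1, triangles control 2, and the dotted line divides secretory from reference classes. Hsp90b1, Ssr4, Sec11c and Creld2 are far highest in plasma-like cells, Kdelr2 in goblet-like cells (319 and 305), and P4hb in enterocyte-like (453 and 438) and Paneth-like cells (424 and 431).

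Counted over the 7 classes by mean scaled level, 24 members were highest in plasma-like, 4 in goblet-like (Pdia3, Ssr1, Rpn1 and Kdelr2), 3 in Paneth-like (Sec61a1, Tram1 and Rpn2), 2 in enteroendocrine-like (Canx and Hyou1) and 1 in enterocyte-like cells (P4hb). Several neighbours in this order did not differ beyond their spread, as for Rpn2 at 112 and 156 in Paneth-like and 148 and 115 in plasma-like cells. Progenitor-like cells were lowest for 23 members. Both plasma-like sums lay above all 6 reference sums for 28 members (3.66% of all genes), both Paneth-like sums for 17 (11.2%), both goblet-like sums for 16 (18.1%) and both enteroendocrine-like sums for 7 (19.9%). Both enteroendocrine-like sums lay below them for 4 members, Sdf2l1, Sec61b, Sec61g and Sec11c (19.8%).

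Calls were shared across classes for many members. Hspa5, Hsp90b1, Calr, Sel1l, Ssr3, Spcs3, Rpn1 and Rpn2 were higher in all 4 secretory classes on the TMM scale, and 11 more in goblet-, Paneth- and plasma-like cells: Manf, Dnajb9, Dnajc3, Pdia6, Creld2, Herpud1, Sec61a1, Ssr4, Tram1, Sec11c and Ddost. The 6 genes Dnajb11, Sdf2l1, Pdia4, Sec61b, Sec61g and Spcs2 were called higher in plasma-like cells and in no other secretory class. On plain totals the Paneth-like fold change of those first 8 was negative for all but Spcs3, with Hspa5 at -0.83, Hsp90b1 at -0.82 and Calr at -0.71 (adjusted p = 0.0093, 0.013 and 0.01). In cells with at least 0.2% Malat1 none of the 8 was called in enteroendocrine-like cells, where Hyou1 was the 1 member higher. The 4 comparisons share their reference sums, so these overlaps are given as a list and not as a test.

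The secretory classes were also compared with each other. Plasma-like against goblet-like cells, 20 members were higher and 2 lower (5.71% and 16.9% of all genes). The higher ones were led by Creld2 (4.36), Pdia4 (4.07), Sdf2l1 (3.94), Sec11c (3.47) and the 3 Spcs genes (3.02 to 3.10), as log2 fold changes, and the lower ones were Kdelr2 (-1.56, adjusted p = 0.0021) and P4hb (-1.12, adjusted p = 0.021). Enteroendocrine-like against goblet-like cells, 16 were lower and 1 higher (15.9% and 17.9%). The lower ones were led by Sec11c (-2.57), Herpud1 (-1.92), Kdelr2 (-1.81) and Manf (-1.66), and the higher one was Hyou1 (1.21, adjusted p = 0.015). No member was higher in that comparison with no replicate block (16.9% of all genes), and likewise with no filter on low counts or without the 6% highest doublet scores, while 5 were higher on plain totals (37.5%). Paneth-like against goblet-like cells, 2 were higher, Spcs3 (1.23, adjusted p = 0.0018) and Sec11c (0.74, adjusted p = 0.029), and 2 lower, Kdelr2 (-1.66, adjusted p = 2.3e-05) and Pdia3 (-0.70, adjusted p = 0.032), where 19.3% of all genes were higher and 18.6% lower. On plain totals neither of the 2 higher Paneth-like calls remained.

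Seen per cell, after thinning each cell to 2000 UMIs, a plasma-like cell showed 11.1 and 12.2 of the 34 genes on average. T or NK-like cells showed 6.99 and 7.54, enteroendocrine-like cells 5.81 and 7.08, goblet-like cells 5.56 and 5.40, enterocyte-like cells 3.76 and 3.33, progenitor-like cells 3.47 and 3.71, and Paneth-like cells 3.33 and 3.70. Thinning left out 1381 and 951 shallower enterocyte-like, 171 and 128 progenitor-like, 43 and 7 T or NK-like and 0 to 18 cells of each secretory class and library. Without thinning the averages were 21.0 and 17.6 in plasma-like, 22.5 and 18.6 in Paneth-like, 15.3 and 15.0 in goblet-like, 18.0 and 17.2 in enteroendocrine-like, 14.8 and 16.7 in T or NK-like, 5.82 and 5.04 in enterocyte-like and 5.21 and 4.78 in progenitor-like cells. Sec11c was seen in 100% and 85.7% of thinned plasma-like cells (93.3% in both libraries without thinning) and in 3.85% and 8.33% of thinned enteroendocrine-like cells (40.6% and 33.3% without). As a background, an erythroid-like cluster of 39 and 26 cells (median 11704 and 10645 UMIs) was read, since mature red cells have no ER. After thinning, which left out 3 and 0 cells, it showed 2.03 and 1.62 members per cell (6.54 and 5.27 without thinning), below every class. Sec11c was in 8.33% and 7.69% of its thinned cells (35.9% and 23.1% without), so the enteroendocrine-like share is read as background. Median depth was 5684 and 5398 UMIs in plasma-like and 14479 and 12571 in enteroendocrine-like cells. The enterocyte-like class was itself uneven: its members' share was 0.501% and 0.377% in its deepest cluster, 0.443% and 0.418% in the cluster led by Apoa1 and Apoa4, and 0.171% and 0.155% in its largest cluster. Its other clusters lay between 0.153% and 0.251%. The deepest cluster, with 9.35% and 12.6% mitochondrial UMIs, held 287 and 209 cells, yet the sums of this reference rest in large part on it.

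Of the other genes of the pathway 124 were listed and 114 tested. Goblet-like cells had 82 of them higher and 2 lower, in Paneth-like cells 52 and 2, in plasma-like cells 43 and 1, and in enteroendocrine-like cells 41 and 12, on the TMM scale. Over all tested genes the shares higher were 27.9%, 16.4%, 3.27% and 27.9% in that order, so enteroendocrine-like counts such as 8 of 32 and 2 of 12 below are near or under the background. Their medians were 0.95, 0.64, 0.79 and 0.24. Of 19 genes of the unfolded protein response, 15 were higher in goblet-like, 12 in enteroendocrine-like, 7 in Paneth-like (1 lower) and 4 in plasma-like cells. Of 32 genes of ER to Golgi traffic, 25 were higher in goblet-like cells (1 lower), 11 in Paneth-like (1 lower), 9 in plasma-like (1 lower) and 8 in enteroendocrine-like cells (3 lower). Of 22 further folding genes, 17, 16, 11 and 10 were higher in goblet-, Paneth-, plasma- and enteroendocrine-like cells, with 2 lower in the last. For the 12 genes of signal recognition and further translocation these counts were 5, 6, 6 and 2, with 3 lower in the last. The 14 further glycosylation genes gave 10 (1 lower), 7, 5 and 4 (2 lower), and the 15 further degradation genes 10, 5, 8 and 5 (2 lower).

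Named by a rule of size, the goblet-like genes were Ern2, Agr2 and Chac1. Ern2, the epithelial IRE1 sensor, was at 169 and 210 scaled CPM in goblet-like cells and at most 2.91 in any reference sum (8.36 ± 0.23, adjusted p = 1.4e-18). Progenitor-like cells held 2 Ern2 UMIs, which gives a pooled ratio of 275 (95% exact interval 75.9 to 2276). This and the pooled ratios and fold bounds below are on plain UMI totals, without TMM scaling. Agr2, a disulfide isomerase that mucins need, was at 4866 and 3424 against 4.37 to 79.3 (7.72 ± 0.27, adjusted p = 8.5e-18). Chac1, a stress-induced glutathione-degrading enzyme, was at 24.6 and 5.75, at least 11.1-fold higher than progenitor-like cells, which held 0 UMIs (a floor of 3 counts over both libraries), and its fitted value depends on how zeros are treated. Sec13, a COPII coat protein, was lower in goblet-like (46.4 and 39.2; -0.92 ± 0.20), Paneth-like (33.5 and 29.9; -1.35 ± 0.28) and enteroendocrine-like cells (20.4 and 14.9; -2.19 ± 0.30), where enterocyte- and progenitor-like cells held 97.5 to 164 and T or NK-like cells 32.1 and 31.8. Ost4, a small oligosaccharyltransferase subunit, was at 136 and 112 in goblet-like cells against 151 to 403 (-0.83 ± 0.22, adjusted p = 0.0022).

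In Paneth-like cells the rule named Pdia2, Fkbp11 and Ern2. Pdia2, a disulfide isomerase, was at 33.5 and 22.0 there, at least 70.4-fold higher than T or NK-like and 13.1-fold higher than progenitor-like cells by pooled CPM, both of which held 0 UMIs. Fkbp11, an ER prolyl isomerase, was at 51.2 and 75.9 against at most 2.40 in the references (6.32 ± 0.45, adjusted p = 5.8e-11), and Ern2 was at 23.7 and 26 (5.43 ± 0.49, with a pooled ratio of 17.5 to progenitor-like cells, 95% exact interval 4.37 to 153). Creb3 was lower in the fit (-2.09 ± 0.64), but from 3 UMIs in all. On plain totals the pooled ratio to progenitor-like cells was 0.168 (95% exact interval 0.0325 to 0.551). The TMM factors were 0.418 and 0.489 in Paneth-like and 1.22 and 1.49 in progenitor-like sums. The ratio would thus be larger on the TMM scale, where no interval was computed.

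In plasma-like cells it named Derl3, Txndc5 and Fkbp11. Derl3, a degradation gene of the derlin family, was at 428 and 216 against at most 0.763 in the references, where progenitor-like cells held 2 UMIs (pooled ratio 368, 95% exact interval 98.0 to 3103). Txndc5, a disulfide isomerase, was at 2328 and 1093 against 6.99 to 19.7 (7.14 ± 0.27, adjusted p = 2.4e-16), and Fkbp11 at 107 and 86.3 (6.87 ± 0.71). Golgb1, the Golgi tether giantin, was lower in the fit (-3.03 ± 0.95) from 1 UMI. On plain totals its pooled ratio to progenitor-like cells was 0.0973 (95% exact interval 0.00244 to 0.553). With TMM factors of 0.62 and 0.787 in plasma-like sums, that ratio too would be larger on the TMM scale, where no interval was computed. In enteroendocrine-like cells it named Agr3 (109 and 297, against at most 3.68 in the references), Atf3 (89.9 and 76.5) and Agr2 (641 and 684), with log2 fold changes of 7.74 ± 0.44, 5.22 ± 0.35 and 5.08 ± 0.25. Besides Sec13, the lower genes were Srp9 (52.7 and 44.6; -1.73 ± 0.24) and Srp19 (20.4 and 23.4; -1.59 ± 0.29), both parts of the signal recognition particle that brings ribosomes to the ER. Srp9 was at 109 to 214 and Srp19 at 58.9 to 72.5 in the references, so neither overlapped.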

How the data were processed

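The authors deposited raw UMI counts per gene and cell barcode for 2 libraries, written by Cell Ranger 7.1.0 per the file headers. Version 6.1 also stands in the submitters' processing notes, beside 7.1.0, with GRCm38 and mm10 as builds. The annotation release, barcode filter and use of intronic reads are not given in the sources used here. Gene identifiers, symbols and cell barcodes came with the deposited counts. Cells with at least 500 genes and under 25% mitochondrial UMIs were kept, and Scrublet (expected rate 0.06) removed 59 and 31 cells as doublets (0.829% and 0.654%), leaving median depths of 3431 and 3000 UMIs. Cells were clustered in scanpy 1.11.5 (2000 variable genes, 40 components, 15 neighbours, Leiden resolution 1), without the members, the other pathway genes, mitochondrial and ribosomal genes. The 25 clusters were named from 17 marker lists of 150 genes, taking at least 3 detected markers, and the scoring rule was set after the data were seen. Counts were summed per class and library, and the 14 sums were fitted in edgeR 4.0.16 (R 4.3.3) with TMM scaling, filterByExpr, class and library as terms and the quasi-likelihood test, with Benjamini-Hochberg adjustment over 12058 genes for each of 19 comparisons at 0.05. The fit was run on simulated sums with log2 changes seeded in goblet-like cells alone. It recovered 62 of 96 changes of 1 and 91 of 96 changes of 2, and called 3 of 10245 unchanged genes. All classes shared the same mean levels there, unlike these data, and changes in the smaller classes were not tried. The p-values rest on the spread between these 2 libraries, pooled for each gene over all 14 sums and moderated across genes. They therefore do not measure the spread of the tested class alone, as Tram1 in plasma-like cells shows. Replicate numbers were given in accession order. Alternatives included DESeq2 1.42.0, other scalings, filters and class definitions. All 34 members are named. Of the other pathway genes, each comparison names up to 3 with the largest and 3 with the lowest log2 fold change among those called with the same sign in both libraries. The members and lists were chosen with earlier results of these data known. The levels of 1 marker list in the plasma-like class are not reported here. The erythroid-like background was added after the data were seen.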

Additional observations from a re-analysis of the deposited data

How the results depend on the processing

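Of 349 counts of members under the alternatives, 277 stayed within 1.5 times the value given above. Of 1649 tests of single members and named genes, 1446 kept their direction and call, 180 kept the direction without the call and 23 reversed. The settings on Malat1, T or NK-rich progenitors, the 5 deepest cells and marker-free plain totals were chosen after the data were seen. The cause of the changes was not tested. The counts below show how calls move with the settings. Where no share of all genes stands beside a count, here or above, it is not a result about the members. With DESeq2's Wald test, members called higher numbered 22 (enteroendocrine against the 3 references), 26 (Paneth against enterocyte), 15 (enteroendocrine against enterocyte), 14 (enteroendocrine against T or NK), 2 (enteroendocrine against goblet), and those lower numbered 2 (enteroendocrine against the 3 references). In that fit 36.8% of all genes were higher and 13.2% lower in enteroendocrine-like cells against the 3 references. Leiden resolution 0.5 gave no enteroendocrine or progenitor class and left a deep cluster that scored as enterocyte unnamed. Members called higher there numbered 29 (goblet against enterocyte), 27 (Paneth against enterocyte). The members' share was 0.235% (enterocyte). With RLE size factors, members called higher numbered 22 (enteroendocrine against the 3 references), 25 (Paneth against enterocyte), 14 (enteroendocrine against enterocyte), 13 (enteroendocrine against T or NK), and those lower numbered 1 (enteroendocrine against the 3 references). With classes set by marker score, members called higher numbered 10 (goblet against the 3 references), 3 (Paneth against the 3 references), 1 (enteroendocrine against the 3 references), 9 (goblet against enterocyte), 9 (goblet against progenitor), 12 (goblet against T or NK), 4 (Paneth against enterocyte), 4 (Paneth against progenitor), 6 (Paneth against T or NK), 4 (enteroendocrine against enterocyte), 3 (enteroendocrine against progenitor), 18 (plasma against progenitor), 0 (Paneth against goblet), and those lower numbered 1 (enteroendocrine against the 3 references). By that score 15% of all genes were lower in enteroendocrine-like cells against the 3 references. The members' share was 0.968% (plasma), 0.477% (progenitor). Log2 fold changes turned negative for Hspa5 (-0.36, Paneth), Hsp90b1 (-0.44, Paneth), Calr (-0.29, Paneth), Canx (-0.041, Paneth), Manf (-0.068, Paneth). Averaged over cells, the members' share was 0.364% (goblet), 0.417% (enteroendocrine), 1.07% (plasma), 0.235% (enterocyte), 0.25% (progenitor). With no filter on low counts, members called higher numbered 7 (enteroendocrine against the 3 references), 2 (enteroendocrine against enterocyte), 3 (enteroendocrine against T or NK), 1 (Paneth against goblet), 0 (enteroendocrine against goblet), and those lower numbered 8 (enteroendocrine against the 3 references). With no replicate block, members called higher numbered 1 (Paneth against goblet), 0 (enteroendocrine against goblet). With cells of at least 0.2% Malat1 (no Paneth or plasma class), members called higher numbered 1 (enteroendocrine against the 3 references), 19 (goblet against progenitor), 2 (enteroendocrine against enterocyte), 6 (enteroendocrine against progenitor), and those lower numbered 1 (goblet against the 3 references), 9 (enteroendocrine against the 3 references). Of all genes 26.9% were lower in goblet-like cells against the 3 references there. The members' share was 0.411% (enterocyte), 0.451% (progenitor). Log2 fold changes turned negative for Creld2 (-0.091, goblet). With cells under 0.2% Malat1 (no enteroendocrine or T or NK class), members called higher numbered 26 (Paneth against enterocyte), 0 (Paneth against goblet), 11 (plasma against goblet). The members' share was 0.522% (goblet), 1.05% (plasma), 0.228% (progenitor). With only the compared classes in the fit, members called higher numbered 3 (enteroendocrine against enterocyte), 5 (Paneth against goblet). Without T or NK-rich progenitors, the members' share was 0.233% (progenitor). Thinned to 1000 UMIs, the mean number of members detected per cell was 3.14 (goblet), 2.09 (Paneth), 3.42 (enteroendocrine), 7.4 (plasma), 1.94 (enterocyte), 2.01 (progenitor), 4.05 (T or NK). On plain UMI totals, members called higher numbered 17 (goblet against the 3 references), 3 (Paneth against the 3 references), 19 (goblet against progenitor), 5 (goblet against T or NK), 3 (Paneth against enterocyte), 5 (Paneth against progenitor), 1 (Paneth against T or NK), 15 (enteroendocrine against enterocyte), 0 (Paneth against goblet), 5 (enteroendocrine against goblet), and those lower numbered 1 (goblet against the 3 references), 15 (Paneth against the 3 references), 2 (enteroendocrine against the 3 references), 1 (plasma against the 3 references). Log2 fold changes turned negative for Spcs1 (-0.092, goblet), Hspa5 (-0.83, Paneth), Hsp90b1 (-0.82, Paneth), Calr (-0.71, Paneth), Canx (-0.78, Paneth), Hyou1 (-0.021, Paneth), Manf (-0.67, Paneth), Dnajc3 (-0.22, Paneth), Sel1l (-0.21, Paneth), Ssr3 (-0.12, Paneth), Ssr4 (-0.087, Paneth), Sec11c (-0.094, Paneth), Rpn1 (-0.13, Paneth), Rpn2 (-0.0501, Paneth), Kdelr2 (-0.51, Paneth). With immunoglobulin and marker genes out of the totals, the members' share was 0.712% (goblet), 0.52% (Paneth), 0.559% (enteroendocrine), 3.71% (plasma). With those genes left out and plain totals, members called higher numbered 21 (enteroendocrine against the 3 references), 7 (Paneth against T or NK), 16 (enteroendocrine against enterocyte), 0 (Paneth against goblet), 2 (enteroendocrine against goblet), and those lower numbered 1 (enteroendocrine against the 3 references). Of all genes 36.2% were higher and 14.8% lower in enteroendocrine-like cells against the 3 references there. Without the 5 deepest cells per class and library, members called higher numbered 7 (enteroendocrine against the 3 references), 16 (plasma against enterocyte), 17 (plasma against T or NK). Of all genes 23.2% were higher in enteroendocrine-like cells against the 3 references there. Plasma-like members higher against the 3 references numbered 18 (1.2% of all genes). The members' share was 0.428% (enteroendocrine), 0.26% (progenitor). Log2 fold changes turned negative for Sec61a1 (-0.41, plasma), Tram1 (-0.36, plasma). Without the 6% highest doublet scores, members called higher numbered 1 (Paneth against goblet), 0 (enteroendocrine against goblet), and those lower numbered 7 (enteroendocrine against the 3 references). Of all genes 28.3% were lower in enteroendocrine-like cells against the 3 references there. The members' share was 0.265% (progenitor). The library is a block in the main fit, because every class comes from the same 2 suspensions, and the values without that block stand above. With 1 library left out no spread remains, so only log2 ratios were computed: of 228, 165 moved by less than the spread, 62 moved more, and Tram1 in plasma-like cells ranged from -0.28 without control 1, a reversal, to 2.17 without control 2. Depth limits the plasma-like class most for members with few UMIs, such as Hyou1, Syvn1, Canx and Ssr1.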
